A study of Rattus norvegicus with 12 samples.

Results

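Podocyte slit diaphragm genes were followed in the kidney of the rat after ischemia reperfusion injury (IRI), a model in which blood flow to the organ is blocked and later returns. The genes were taken from a list of 8 symbols by the gene name that the array files give to each probe: Nphs1, Kirrel1 (named Kirrel in the files), Magi2, Podxl, Ptpro, Synpo, Plce1 and Wt1. All 8 were found, with 12 probes of the 30367 on the array. The samples were left kidneys of female F344 rats, an inbred strain, aged 10 weeks. Sham operated rats were killed 7 days after the operation, and rats with unilateral IRI of the left kidney were killed at day 3 or at day 7, with 4 rats and 4 arrays in each of the 3 groups. The labels give no sham rats at day 3, so sham and day 3 kidneys also differ in the time since surgery. Whole kidney RNA was used, in which glomeruli are a small part of the tissue. RNA was labelled with Cy3 and read on single-colour Agilent arrays, where a brighter spot means more of the RNA that its probe binds.

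Podocytes are the epithelial cells that cover the outside of the glomerular capillaries. Their foot processes interlock, and the gap between neighbouring foot processes is bridged by the slit diaphragm, the last barrier of the renal filter. Its zipper is made of nephrin (Nphs1) and related proteins (Kirrel1), held to the actin skeleton by adaptors such as CD2AP and the scaffold MAGI-2, while the sialic acid coat of podocalyxin (Podxl) keeps foot processes apart. Wt1, a zinc finger transcription factor, is needed for podocyte development and maintenance.

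The probes were 60 bases long, and the files place them on the rat build rn4. Those of 4 members are printed here because they read the parts of the transcripts on which the opposite changes of Nphs1 and Kirrel1, and the size of the fall of Wt1 and Magi2, rest. Capitals mark a stop codon that closes an open reading frame.
Nphs1 probe 1: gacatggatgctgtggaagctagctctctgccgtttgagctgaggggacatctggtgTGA
Wt1 probe 1: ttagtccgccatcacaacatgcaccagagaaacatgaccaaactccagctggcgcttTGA
Kirrel1 probe: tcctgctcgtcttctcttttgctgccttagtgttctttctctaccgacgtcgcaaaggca
Magi2 probe: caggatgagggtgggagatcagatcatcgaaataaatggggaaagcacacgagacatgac

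The Nphs1 probe 1 lies at chr1:85442444-85442503 on the plus strand and ends on the stop codon. Probe 2 of Nphs1 lies downstream of it at chr1:85443916-85443975. The Wt1 probe 1 at chr3:90575952-90576011 on the plus strand also ends on a stop codon, and the other two Wt1 probes lie downstream of it, probe 3 at chr3:90576101-90576160 and probe 2 at chr3:90577175-90577234. The Kirrel1 probe lies at chr2:179116362-179116421 on the minus strand. The 60 bases of the Magi2 probe are spread over 45450 bases of the genome on the minus strand, chr4:9960556-10006005, so this probe reads spliced RNA across an exon junction. The Podxl probe at chr4:58611978-58612037 on the minus strand was present as 10 spots on each array, and its value is their mean. Exon and UTR annotation of build rn4 was not used here.

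All values are on the log2 scale, with the 75th percentile of that array's signals set to 0. Before this scaling the percentile lay between 224.7 and 394.2 intensity units on sham arrays, between 665.2 and 743.2 on day 3 arrays and between 421.9 and 561.6 on day 7 arrays. Its mean was 2.17 times that of sham at day 3 and 1.53 times at day 7, so a difference shows change relative to the other RNAs on the array. Scaling to the total signal instead moved the median difference of all genes from -0.13 to 0.15 at day 3 and from -0.07 to 0.17 at day 7. The sources used here do not give the mass of RNA labelled, and the labelling kit that the labels name is one for DNA. Between 64.98% and 80.65% of spots stood well above background, and the number of arrays limits the precision. The defining transcripts of kidney tubules were strong in sham, with Umod of the thick ascending limb at 5.39 ± 0.16 and Slc34a1 of the proximal tubule at 5.98 ± 0.11 (SD, n = 4 each). Of the 8 genes, 7 could be tested; Plce1 was too dim. Levels of different probes cannot be set against each other, so the order of levels is given between groups only. Both comparisons with sham share the same 4 sham arrays.

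At day 3, Nphs1, Magi2, Podxl and Wt1 were lower than in sham, by 3.14- to 6.41-fold, Kirrel1 was higher by 2.12-fold, and Synpo and Ptpro did not pass the test. The test was limma across all probes, with Benjamini-Hochberg adjusted p values and a threshold of 0.05. A probe was tested where some group had it above background on each of its 4 arrays. Magi2 met this in sham only, the group where its mean was highest, so this filter favoured a fall. Of the 7 tested members, 5 passed, while 57.1% of all 18510 tested genes passed in this comparison. Lower calls made up 33.0% and higher calls 24.1% of all genes. The share of members that passed is thus close to that of the array as a whole, which was changed broadly at this time. The median log2 difference of the 7 members was -1.65, beside -0.13 for all genes. In 29.5% of all genes every day 3 array lay below every sham array, and among the members this was so for Nphs1, Magi2, Podxl and Wt1. In whole kidney RNA, fewer podocytes and less RNA per podocyte cannot be told apart.

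**Figure D1:**
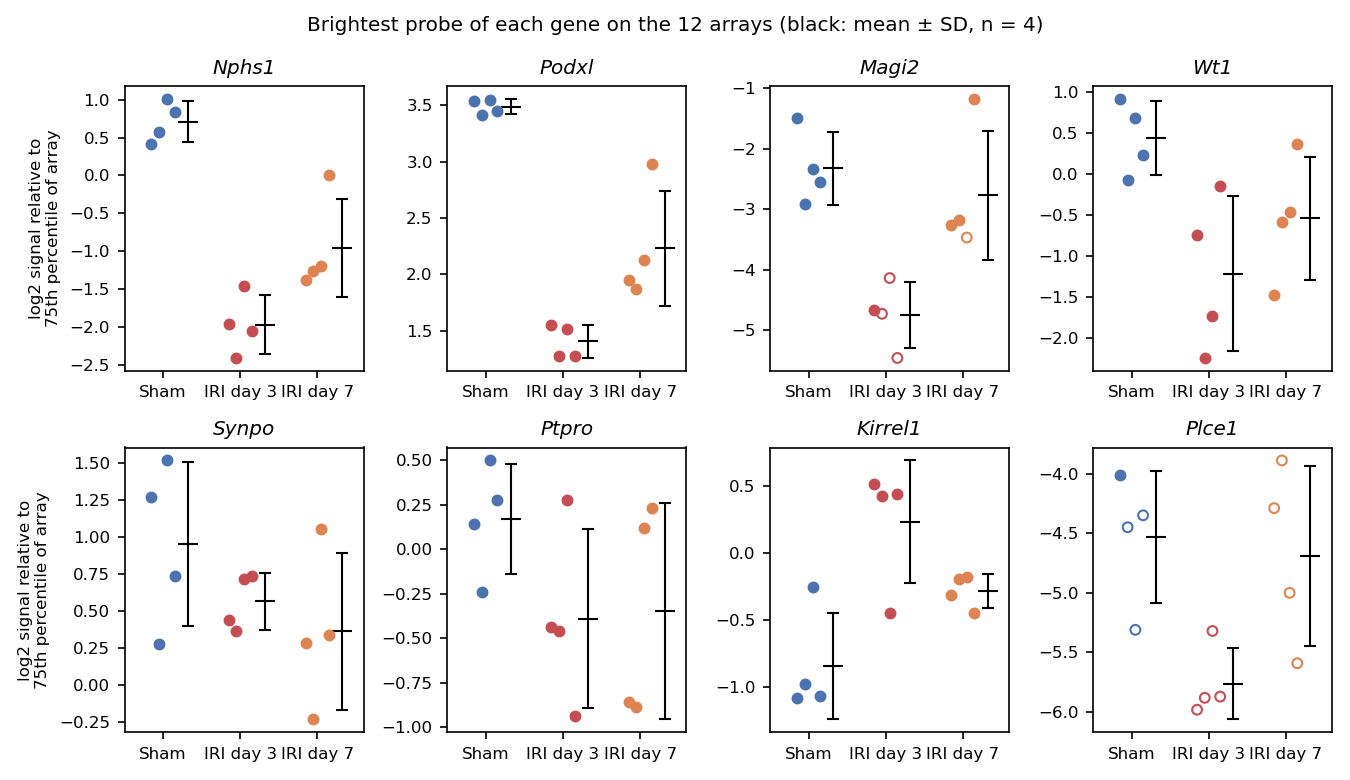
Log2 signal, with the array's 75th percentile at 0 (y axis), of the brightest probe of each of the 8 genes, for sham, IRI day 3 and IRI day 7 (x axis). Each point is 1 array, an open point is an array on which the probe was not well above background, and black bars are mean ± SD (n = 4). Nphs1 and Podxl lie highest in sham and lowest at day 3 without overlap, Kirrel1 has its highest mean at day 3, and Plce1 was above background on 1 array.

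Nphs1 encodes nephrin, the immunoglobulin superfamily protein that spans the slit. Its probe 1 read 0.41, 0.58, 1.01 and 0.84 on the sham arrays, -1.96, -2.41, -1.46 and -2.05 on the day 3 arrays, and -1.38, -1.26, -1.19 and 0.00 on the day 7 arrays. All day 3 arrays were low, the day 7 arrays lay between the other groups, and no groups overlapped. Day 7 replicate 4 stood closest to sham. The sham mean was 0.71 ± 0.27, the day 3 mean -1.97 ± 0.39 and the day 7 mean -0.95 ± 0.64 (SD, n = 4 each), so the order was sham, day 7, day 3. Nphs1 fell by 2.68 ± 0.30 on the log2 scale at day 3 (SE; 6.41-fold, adjusted p = 3.39e-05).

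At day 7 Nphs1 was still 3.17-fold below sham (-1.66 ± 0.30 SE, adjusted p = 0.00427). It was 2.02-fold higher at day 7 than at day 3 (1.02 ± 0.30 SE, adjusted p = 0.0257). This last call rests on single arrays: without day 7 replicate 4 the difference was 0.70 (adjusted p = 0.0502), and without day 3 replicates 1, 2 or 4 it was 1.02, 0.87 and 0.99 (adjusted p = 0.0532, 0.0768 and 0.0645). With the slide as a block it was 0.96 (adjusted p = 0.0578).

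Probe 2 of Nphs1 was above background on all 4 sham arrays and on 3 of 4 at each day after injury. This probe, too, was kept for the test through sham only. It fell 6.99-fold at day 3 (-2.81 ± 0.47 SE, adjusted p = 0.000378), close to the 6.41-fold of probe 1. At day 7 it read -4.08, -2.83, -2.24 and -1.78, below every sham array, which ran from -1.41 to -0.82. The day 7 difference from sham was -1.61 ± 0.47 (SE; 3.05-fold, adjusted p = 0.0332). This call was lost without sham replicates 1, 3 or 4 (adjusted p = 0.0729, 0.055 and 0.0674), without day 7 replicates 1 or 2 (0.0727 and 0.0642), with the slide or the scan batch as a block (0.0619 and 0.0502), with no filter on dim probes (0.0539), and with the normexp background correction (-0.76, adjusted p = 0.703). Between the days the difference was 1.19 ± 0.47 (SE, adjusted p = 0.0695) and the groups overlapped; it passed without day 3 replicate 3 (1.57, adjusted p = 0.0225) and without day 7 replicate 1 (1.64, adjusted p = 0.0137), and under normexp without spots below their local background, an alternative added after seeing the data (0.83, adjusted p = 0.00919).

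Kirrel1 encodes NEPH1, a partner that binds nephrin in the slit and that is also made by other cells. Its probe read -1.08, -0.98, -0.25 and -1.07 in sham, 0.52, 0.43, -0.45 and 0.44 at day 3, and -0.31, -0.19, -0.18 and -0.45 at day 7. At day 3 all but replicate 3 lay above every sham array, and in sham replicate 3 stood above the rest, so the groups overlapped. The sham mean was -0.85 ± 0.40, the day 3 mean 0.24 ± 0.46 and the day 7 mean -0.28 ± 0.13 (SD, n = 4 each). Kirrel1 rose by 1.08 ± 0.24 at day 3 (SE; 2.12-fold, adjusted p = 0.00272), against the direction of Nphs1.

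At day 7 the difference of Kirrel1 from sham was 0.56 ± 0.24 (SE, adjusted p = 0.127), and that between the days was -0.52 ± 0.24 (SE, adjusted p = 0.121). Neither passed, and both turned on 1 array. Without sham replicate 3 the day 7 difference from sham was 0.76 (adjusted p = 0.0412), and without day 3 replicate 3 the difference between the days was -0.75 (adjusted p = 0.0214). Scaled to the total signal instead of the 75th percentile, the day 7 difference from sham was 0.80 (adjusted p = 0.0355).

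Magi2 encodes a scaffold with several PDZ domains that binds nephrin inside the foot process. Its probe read -1.50, -2.92, -2.33 and -2.55 in sham, -4.66, -4.73, -4.14 and -5.46 at day 3, and -3.27, -3.18, -3.47 and -1.18 at day 7. It was well above background on 4 sham arrays, on 1 of 4 at day 3 and on 3 of 4 at day 7. Every day 3 array lay below every array of the other groups, and day 7 replicate 4 was above all sham arrays. The means were -2.32 ± 0.60, -4.75 ± 0.54 and -2.77 ± 1.07 (SD, n = 4 each).

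Magi2 fell by 2.42 ± 0.49 at day 3 (SE; 5.36-fold, adjusted p = 0.00136), a size that the dim day 3 spots make uncertain. At day 7 its difference from sham was -0.45 ± 0.49 (SE, adjusted p = 0.56). It was higher at day 7 than at day 3 by a fitted 1.97 ± 0.49 (SE, adjusted p = 0.0122), a size that rests on the same dim day 3 spots. Leaving out 1 array at a time kept that difference between 1.44 and 2.21.

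Podxl encodes podocalyxin, the sialomucin of the podocyte surface, which endothelial cells also make. It read 3.54, 3.41, 3.55 and 3.45 in sham, 1.55, 1.28, 1.52 and 1.28 at day 3, and 1.95, 1.87, 2.13 and 2.98 at day 7. The sham arrays lay within a narrow band, and the 3 groups did not overlap. The means were 3.49 ± 0.07, 1.41 ± 0.15 and 2.23 ± 0.51 (SD, n = 4 each), in the same order as for Nphs1. Podxl fell by 2.08 ± 0.22 at day 3 (SE; 4.23-fold, adjusted p = 2.13e-05) and was 2.39-fold below sham at day 7 (-1.26 ± 0.22 SE, adjusted p = 0.00324). Between the days it was 0.82 ± 0.22 higher at day 7 (SE; 1.77-fold, adjusted p = 0.0158).

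Ptpro encodes GLEPP1, a receptor tyrosine phosphatase of the podocyte foot process. Probe 1 read 0.14, -0.24, 0.50 and 0.28 in sham, -0.44, -0.46, 0.28 and -0.94 at day 3, and -0.86, -0.89, 0.12 and 0.23 at day 7. All 3 groups overlapped by this probe. Its differences from sham were -0.56 ± 0.32 at day 3 (SE, adjusted p = 0.151) and -0.52 ± 0.32 at day 7 (SE, adjusted p = 0.276). Those of probe 2 were -0.53 ± 0.34 at day 3 (SE, adjusted p = 0.206) and -0.79 ± 0.34 at day 7 (SE, adjusted p = 0.125). By probe 2 every day 3 array lay below every sham array, narrowly, with the nearest at -0.80 and -0.77. This was so in 29.5% of all genes by their brightest probe. Neither probe passed in any comparison. Under normexp without spots below their local background, probe 2 passed at day 3 (-0.56, adjusted p = 0.0341) and at day 7 (-0.67, adjusted p = 0.0443).

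Synpo encodes synaptopodin, which binds actin in foot processes. It read 1.27, 0.28, 1.52 and 0.74 in sham, 0.44, 0.37, 0.72 and 0.74 at day 3, and 0.29, -0.23, 1.06 and 0.34 at day 7. The sham arrays spanned all values of the other groups except that of day 7 replicate 2. The differences from sham were -0.39 ± 0.30 at day 3 (SE, adjusted p = 0.289) and -0.59 ± 0.30 at day 7 (SE, adjusted p = 0.192), and that between the days was -0.20 ± 0.30 (SE, adjusted p = 0.631).

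Plce1 encodes a phospholipase C, mutated in some hereditary nephrotic syndromes. Its probe, at chr1:243103364-243103423, was well above background on 1 sham array, where it read -4.01, and on 0 of the 8 arrays after injury. It was therefore not tested. The highest of the values below background was -3.89, on a day 7 array.

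Wt1 had 3 probes. Probe 1 read 0.91, -0.08, 0.68 and 0.23 in sham, -0.75, -2.24, -1.73 and -0.15 at day 3, and -1.47, -0.59, -0.47 and 0.36 at day 7. The sham and day 3 arrays did not overlap, but day 3 replicate 4 at -0.15 lay next to sham replicate 2 at -0.08. Wt1 fell by 1.65 ± 0.47 by this probe at day 3 (SE; 3.14-fold, adjusted p = 0.01), and its day 7 difference from sham was -0.98 ± 0.47 (SE, adjusted p = 0.165).

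Probe 2 of Wt1 showed tighter groups. It read -1.0, -0.80, -0.87 and -0.63 in sham, -3.24, -3.90, -3.77 and -3.70 at day 3, and -3.87, -3.39, -2.80 and -1.92 at day 7. The arrays after injury all lay below those of sham. The fall was 7.09-fold at day 3 (-2.83 ± 0.34 SE, adjusted p = 4.54e-05) and 4.5-fold at day 7 (-2.17 ± 0.34 SE, adjusted p = 0.00191).

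Probe 3 of Wt1 gave the smallest fall at day 3 among the 3 probes, -0.99 ± 0.29 (SE; 1.99-fold, adjusted p = 0.0117), with overlapping groups. At day 7 it was 2.44-fold lower than sham (-1.29 ± 0.29 SE, adjusted p = 0.0116), with 1 of 4 day 7 arrays above background. All 3 probes thus fell at day 3, by sizes that ranged from 1.99- to 7.09-fold. At day 7 probes 2 and 3 passed and probe 1 did not. No Wt1 probe passed between the days, with differences of 0.68, 0.66 and -0.29 for probes 1 to 3 (adjusted p = 0.282, 0.151 and 0.458). Probe 2 passed there without day 7 replicate 1 (0.95, adjusted p = 0.0425) and under normexp without spots below their local background (0.61, adjusted p = 0.0155).

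**Figure D2:**
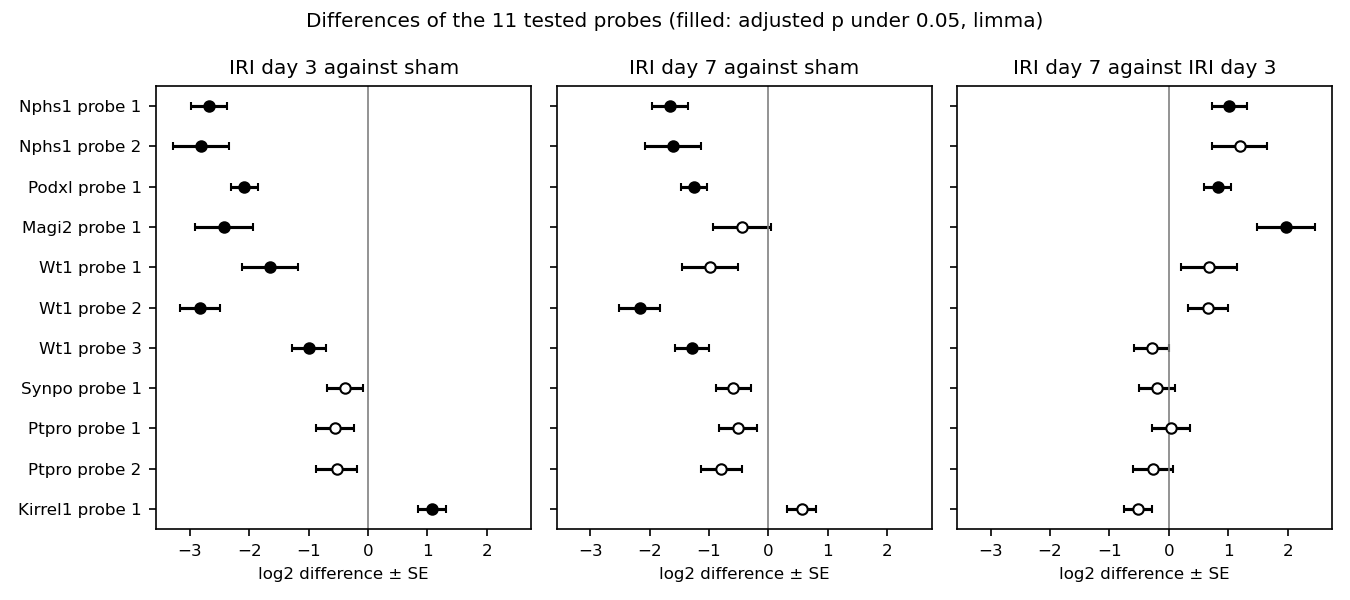
Log2 difference ± SE (x axis) of the 11 tested probes of 7 genes (y axis) in 3 comparisons, from limma over 12 arrays; filled points passed an adjusted p of 0.05. Both Nphs1 probes, Podxl, Magi2 and the 3 Wt1 probes fell at day 3, Kirrel1 rose, and Synpo and Ptpro probes crossed no threshold in any panel.

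Read from the brightest probe of each gene, Nphs1 and Podxl were the 2 of 7 members that passed at day 7 against sham, both lower. Over all genes 18.5% passed at this time, 10.5% lower and 8.06% higher. The median difference of the members was -0.59, beside -0.07 for all genes. In 12.6% of all genes every day 7 array lay below every sham array, as for Nphs1 and Podxl. From day 3 to day 7, Nphs1, Podxl and Magi2 rose, which is 3 of 7 members, while 31.1% of all genes passed, 17.8% higher and 13.2% lower. Their day 7 arrays all lay above their day 3 arrays, as in 18.6% of all genes. The median of the members was 0.68 between the days, beside 0.05 for all genes. Single arrays moved these medians: without day 7 replicate 4 they were -0.98 at day 7 and 0.37 between the days, and without day 3 replicate 2 the latter was 0.33.

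Each of the 3 slides held arrays of all groups, so the differences could also be taken within a slide. For slides 1, 2 and 3 the day 3 difference from sham was -2.08, -2.58 and -3.42 for Nphs1, -1.98, -1.99 and -2.27 for Podxl, and -2.11, -2.14 and -2.40 for Magi2. It was 0.63, 1.46 and 0.68 for Kirrel1 and -2.30, -0.37 and -2.92 for Wt1 probe 1. At day 7 against sham it was -1.88, -1.77 and -1.70 for Nphs1 and -1.63, -1.28 and -1.08 for Podxl. Between the days it was 0.20, 0.82 and 1.72 for Nphs1, 0.35, 0.71 and 1.19 for Podxl, and 0.96, 1.59 and 2.50 for Magi2. The direction of each of these calls was thus the same on all 3 slides.

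These calls did not all hold under another background correction. With normexp applied to the mean and background signals, 2 members passed at day 3, Nphs1 and Podxl, and the difference of Kirrel1 was 0.46 (adjusted p = 0.177), that of Magi2 -1.41 (adjusted p = 0.0962), that of Wt1 probe 1 -1.08 (adjusted p = 0.0674) and that of Wt1 probe 3 -1.04 (adjusted p = 0.128). The fall of Wt1 probe 2 at day 3 still passed. The day 7 calls of Wt1 ended, with probe 2 at -0.95 (adjusted p = 0.515) and probe 3 at -0.61 (adjusted p = 0.751). At day 7 against sham, Nphs1 was at -1.01 (adjusted p = 0.352) and Podxl at -0.74 (adjusted p = 0.548), and no member passed at day 7 against sham or against day 3.

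The comparison within an array asked whether a gene changed by another amount than Nphs1, which no scaling between arrays can alter. The value of Nphs1 probe 1 was subtracted from each gene on the same array and the fit was repeated, so all these tests share the values of Nphs1. At day 3, Kirrel1, Synpo, Ptpro and Wt1 probe 1 had fallen less than Nphs1 or had risen, and passed, while Podxl and Magi2 did not pass. That is 4 of 6 members, beside 95.3% of all genes that differed from Nphs1.

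Kirrel1 stood farthest from Nphs1. Its log2 ratio to Nphs1 was -1.49, -1.56, -1.26 and -1.90 in sham and 2.49, 2.84, 1.01 and 2.49 at day 3, a rise of 3.76 ± 0.44 (SE; 13.6-fold, adjusted p = 3.24e-09). At day 7 it was 1.06, 1.07, 1.01 and -0.45, still 4.68-fold above sham (2.23 ± 0.44 SE, adjusted p = 8.42e-05). All injured arrays lay above all sham arrays in this ratio.

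Synpo rose 4.9-fold against Nphs1 at day 3 (2.29 ± 0.42 SE, adjusted p = 8.13e-06) and 2.11-fold at day 7 (adjusted p = 0.0186). Ptpro probe 1 rose 4.34-fold against it at day 3 (2.12 ± 0.39 SE, adjusted p = 7.72e-06) and 2.21-fold at day 7 (adjusted p = 0.00793). Probe 2 of Ptpro gave 2.15 ± 0.41 at day 3 (SE, adjusted p = 1.41e-05). On the same arrays, RNA of these 2 foot process genes thus differed less from sham than nephrin RNA did. This is not particular to them. At day 3, 95.3% of all genes differed from Nphs1 in either direction, and the median difference of all genes from sham was -0.13.

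Podxl differed from Nphs1 by 0.60 ± 0.38 at day 3 (SE, adjusted p = 0.126) and by 0.41 at day 7 (adjusted p = 0.296). Magi2 differed by 0.26 ± 0.42 at day 3 (SE, adjusted p = 0.554) and passed at day 7, when it stood 2.32-fold higher against Nphs1 than in sham (1.21, adjusted p = 0.0087). For Wt1 the probes disagreed: at day 3 probe 1 differed by 1.03 ± 0.44 (SE, adjusted p = 0.0275) and probe 3 by 1.68 ± 0.39 (SE, adjusted p = 0.000169), but probe 2 by -0.15 ± 0.39 (SE, adjusted p = 0.713). Probe 2 of Nphs1 differed from probe 1 by -0.13 ± 0.41 at day 3 (SE, adjusted p = 0.765). A p above the threshold does not show that Podxl or Magi2 changed by the same amount as Nphs1.

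At day 7, 4 of 6 members differed from Nphs1 in their change from sham, namely Kirrel1, Synpo, Magi2 and Ptpro, beside 91.8% of all genes. Between the days 3 of 6 did, beside 50.1% of all genes: Kirrel1 by -1.54 (adjusted p = 0.00621), Synpo by -1.22 (adjusted p = 0.0192) and Ptpro by -0.97 (adjusted p = 0.0372). With normexp, 0 of 6 members passed at day 7 or between the days in this comparison. Without day 7 replicate 3, 2 members passed at day 7, and between the days 1 passed without day 3 replicate 2 and 2 passed without any 1 of 6 other arrays.

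**Figure D3:**
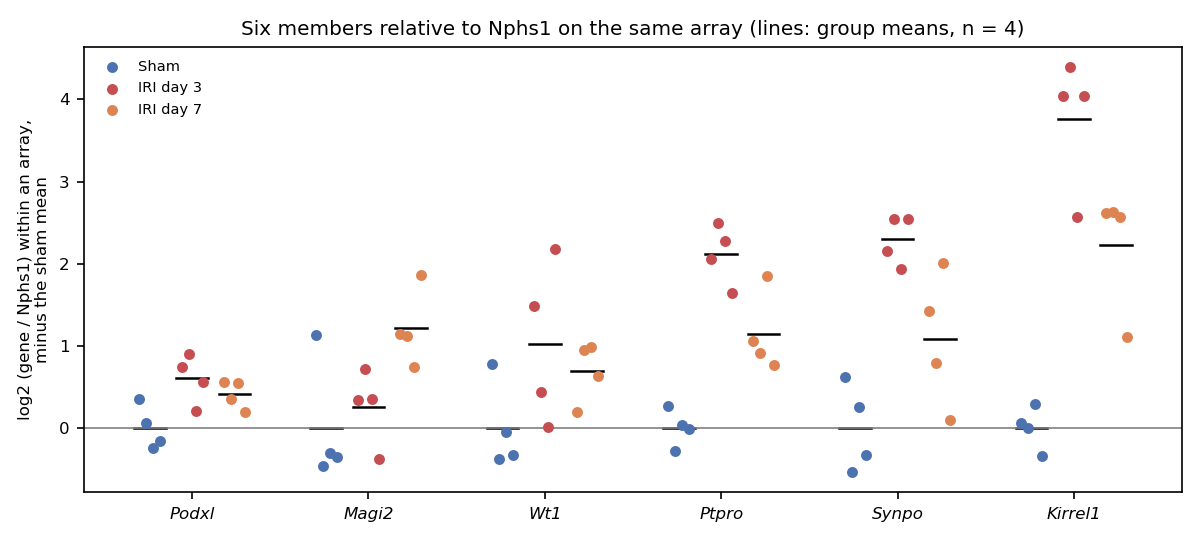
Log2 ratio of 6 genes to Nphs1 probe 1 on the same array, minus the sham mean (y axis), for sham, day 3 and day 7 arrays; lines are group means (n = 4). The day 3 points of Kirrel1, Synpo and Ptpro lie above all their sham points, with Kirrel1 at a mean of 3.76, while those of Podxl and Magi2 overlap sham; 3 of the 4 Magi2 points at day 3 were not well above background.

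Other genes of the podocyte were taken from lists of textbook members. Of 22 partners of the slit diaphragm and genes of the podocyte cytoskeleton, 18 could be tested, and at day 3, 8 were higher, 2 were lower and 8 did not pass, with a median of 0.56. Cd2ap, an adaptor that ties nephrin to actin, rose 3.46-fold (1.79 ± 0.22 SE, adjusted p = 5.23e-05). The large cadherin Fat1 rose 2.35-fold (adjusted p = 0.000191), and Prkci, a polarity kinase, rose by 1.47 on the log2 scale (adjusted p = 5.68e-05) and by 2.38 by another probe (adjusted p = 0.00134). Tjp1, Nck2, Arhgdia, Actn4 and Cask were also higher, by 1.34- to 1.75-fold. Most of these genes are made by many cell types of the kidney.

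The lower ones were Ddn, which encodes dendrin of the slit diaphragm, and Arhgap24, a regulator of Rac. Ddn fell 5.58-fold (-2.48 ± 0.52 SE, adjusted p = 0.00185) and was above background on 2 of 4 day 3 arrays. Its probe was kept for the test through sham only. Arhgap24 fell 2.2-fold by its brightest probe (adjusted p = 0.00034), while another probe of it gave -0.35 (adjusted p = 0.588).

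Of 8 genes listed as podocyte transcription factors, 5 could be tested, and at day 3, 1 was higher and 2 were lower. Lmx1b, a LIM homeodomain factor, fell 3.83-fold (-1.94 ± 0.38 SE, adjusted p = 0.00108). The forkhead factor Foxc1 fell 2.17-fold at day 3 (adjusted p = 0.00123) and was at -0.80 at day 7 (adjusted p = 0.0277). Tcf21, a helix-loop-helix factor that stromal cells also make, rose 2.72-fold at day 3 (adjusted p = 0.000937) and stayed higher at day 7 (1.04, adjusted p = 0.0233). Wtip, a protein that binds WT1 and was kept in this list, was at 0.41 (adjusted p = 0.0677).

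Of 24 podocyte surface, basement membrane and secreted genes, 21 could be tested, and at day 3, 11 were lower and 5 higher, with a median of -0.88. Col4a3 and Col4a4, the collagen IV chains of the glomerular basement membrane, fell 6.45-fold (-2.69 ± 0.32 SE, adjusted p = 4.56e-05) and by a fitted 2.79 on the log2 scale (± 0.93 SE, adjusted p = 0.023). Col4a4 was well above background on 2 of 4 day 3 arrays, so the size of its fall is uncertain. Its probe was kept for the test through sham only. Their partner chain Col4a5 rose 1.65-fold (adjusted p = 0.0132). Vegfa, the growth factor on which glomerular endothelium depends, fell 4.99-fold (adjusted p = 2.08e-05), and Nherf2, which links podocalyxin to ezrin, fell 4.03-fold (adjusted p = 3.18e-05). Robo2, a receptor that binds nephrin through Nck, fell 2.96-fold (adjusted p = 0.00107). Pdpn, podoplanin, rose 6.39-fold (2.68 ± 0.45 SE, adjusted p = 0.000448). The gene is also made by other cells, such as those of lymphatic vessels. For the genes of the podocyte lists that fell, as for those that rose, the cells behind the change were not tested.

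At day 7 against sham, 4 genes of this list were lower and 1 higher. Nherf2 was 3.17-fold lower (adjusted p = 0.000933), Cdkn1c, a cell cycle inhibitor of mature podocytes, 2.38-fold lower (adjusted p = 0.0198), and Vegfa 2.08-fold lower (adjusted p = 0.0119). Clic5, a protein of foot processes, was at -1.0 (adjusted p = 0.0183), and Dag1, dystroglycan, was higher at 0.70 (adjusted p = 0.0132). Between the days 6 genes of the list rose and 2 fell, among them Col4a3, 3.87-fold higher at day 7 (adjusted p = 0.0019), and Pdpn, 2.77-fold lower (adjusted p = 0.0303). The day 3 and day 7 arrays of Pdpn overlapped, and another probe of it gave -0.97 between the days (adjusted p = 0.0924). Against sham at day 7 that probe was at 2.25 (adjusted p = 0.00439) and the brightest at 1.21 (adjusted p = 0.0839). Of the slit diaphragm partners, 1 was higher at day 7 against sham, and 1 rose and 4 fell between the days. The gene higher at day 7 against sham was Prkci (0.57, adjusted p = 0.0475), while its other probe was at -0.44 (adjusted p = 0.561). Of the 5 tested genes of the transcription factor list, 1 was higher and 1 lower at day 7. Lmx1b was the one that rose between the days (1.08, adjusted p = 0.0477).

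Markers of other cells moved in the same comparisons. In the list of glomerular and other endothelium, 7 of 12 tested genes were lower and 0 higher at day 3, with a median of -1.0, and 4 were lower at day 7, with a median of -0.57. Vwf fell 7.94-fold at day 3 and was 3.01-fold lower at day 7 (adjusted p = 2.26e-05 and 0.0063), with other probes at -1.64 and -3.55 at day 3, and Kdr fell 2.89-fold at day 3 (adjusted p = 0.000194). Pecam1 was at -0.57 (adjusted p = 0.0677) and Cdh5 at -0.38 (adjusted p = 0.1). The summed level of the list, on the log2 scale, lay between 4.52 and 4.86 in sham, between 3.46 and 3.97 at day 3 and between 3.50 and 4.54 at day 7. Podxl is made by endothelium too, and the part of endothelial change in its difference was not tested.

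Of 8 genes of the parietal epithelium of Bowman's capsule, whose cells neighbour podocytes, 6 were higher at day 3 and 0 lower, with a median of 0.77. Which cells of the whole kidney these rises came from was not tested. Cd44, a hyaluronan receptor, rose by 1.30 on the log2 scale by its brightest probe (adjusted p = 0.00104) and by 3.96 by another (adjusted p = 0.000137). Their summed level was 2.96 to 3.55 on the sham arrays, 3.62 to 3.84 on those of day 3, and 3.20 to 3.42 on those of day 7. Of 10 mesangial and pericyte genes, 5 were higher and 2 lower at day 3 (median 0.66), with summed levels of 3.20 to 3.93 in sham and 2.96 to 3.47 at day 3. Wt1 is also made by mesothelium, and of 5 mesothelial genes 3 could be tested: Krt19, which other epithelia share, rose 3.74-fold (adjusted p = 0.000976), while Upk3b and Upk1b were at -0.40 and -0.91 (adjusted p = 0.412 and 0.126). The probes of Msln and Lrrn4 were not above background on all 4 arrays of any group.

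Among the 10 lists, the medians farthest from 0 at day 3 were those of tubules and leukocytes. Proximal tubule genes had a median of -2.37 at day 3, with 6 of 8 lower and 0 higher, with a summed level of 8.40 to 8.52 in sham and 4.81 to 6.64 after 3 days. Distal nephron genes had a median of -2.31 with 8 of 8 lower, with a summed level of 6.25 to 6.61 in sham and 2.96 to 3.79 after 3 days. Of 8 tested leukocyte genes 5 were higher at day 3 and 0 lower (median 1.71), with Ptprc, which encodes CD45, 4.31-fold higher (adjusted p = 7.41e-05). Their summed level lay between 2.99 and 3.45 in sham, between 4.68 and 4.93 at day 3 and between 4.06 and 4.37 at day 7. The part of this shift in RNA makeup in the differences of the podocyte genes was not tested, and the ratios to Nphs1 given above do not depend on the scaling between arrays.

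**Figure D4:**
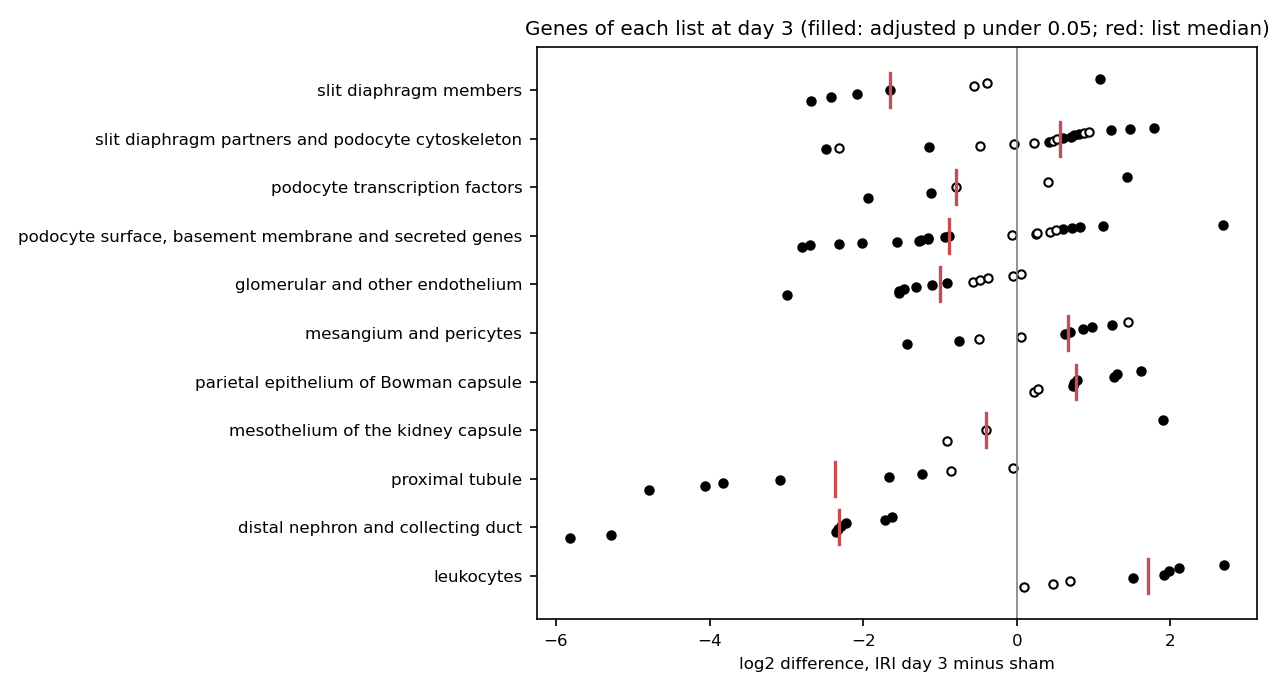
Log2 difference of day 3 from sham (x axis) for the 7 tested slit diaphragm genes and for the tested genes of 10 other lists (y axis), from limma; filled points passed an adjusted p of 0.05, and red bars are list medians. The slit diaphragm genes split, with 4 filled points below 0 and Kirrel1 above it; the partners lie mostly above 0 (median 0.56), and the proximal and distal tubule lists lie lowest.

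Arrays of a group also differed from each other, and some of the members did so together. Correlations were taken of the deviations from the group mean over the 12 arrays, as a description. Nphs1 went with Podxl at r = 0.86, with Ptpro at 0.69, with Magi2 at 0.68, with Wt1 at 0.43, with Synpo at 0.17 and with Kirrel1 at -0.27. The median over 14614 genes well above background on all arrays was 0.10, and 99.9% of these genes had a lower r with Nphs1 than Podxl. Over the 21 pairs of members the median r was 0.30, from -0.38 to 0.86. The arrays share scaling and tissue makeup: tubule genes also went with Nphs1, at a median r of 0.56 for the proximal and 0.54 for the distal list, and the endothelial list at 0.43. The other podocyte genes went with Nphs1 less closely than the tubule lists. The median r was 0.05 for the slit diaphragm partners and 0.16 for the surface and basement membrane genes. It was 0.36 for 3 genes of the transcription factor list.

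Day 7 replicate 4 set much of this. On that array Nphs1, Podxl and Magi2 were each highest in their group, while the median deviation of the endothelial list was 0.49 and that of the proximal tubule list 0.55. Without it, over 11 arrays, r was 0.51 for Nphs1 with Podxl, 0.62 with Ptpro, 0.12 with Magi2 and 0.11 with Wt1, and Podxl with Ptpro was at 0.76. The median over all genes was then 0.06.

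**Figure D5:**
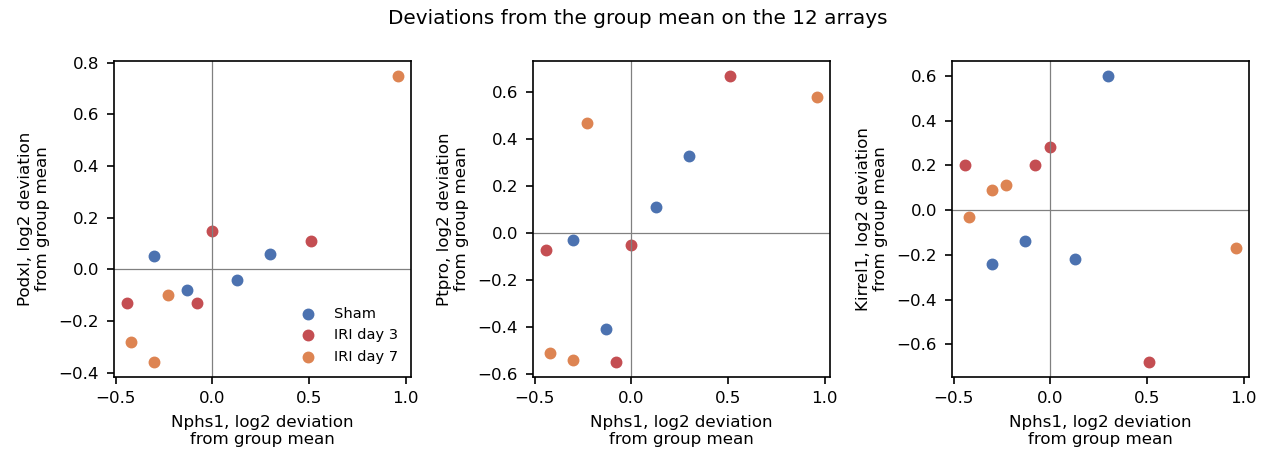
Log2 deviation from the group mean of Nphs1 (x axis) against that of Podxl, Ptpro and Kirrel1 (y axes), with 1 point for each of the 12 arrays, coloured by group. Podxl (r = 0.86) and Ptpro (r = 0.69) rise with Nphs1, Kirrel1 (r = -0.27) does not, and 1 day 7 array lies far to the right.

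The 10 genes whose deviations went most closely with Nphs1 were, in order, C1qtnf4 (r = 0.93), LOC680207 and Mocos (0.92 each), Tmem150c (0.91), RGD1562542 and Clic3 (0.90 each), Kcnk7 and Dusp6 (0.89 each), Zfp688 and the unnamed probe A_64_P106975 (0.88 each). None of them belongs to the podocyte lists above. Without day 7 replicate 4, RGD1562542 was at 0.89, C1qtnf4 at 0.87, and the lowest of the 10 at 0.70.

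The promoters of Nphs1 and Podxl, both of which fell at day 3 without overlap with sham, are printed for comparison. They are the 250 bases before the start of each gene, from RefSeq on build GRCr8, at chr1:94848011-94848260 on the plus strand and chr4:61149132-61149381 on the minus strand. Capitals mark matches to the searched words on either strand, and in Podxl neighbouring matches overlap or touch.
Nphs1 promoter: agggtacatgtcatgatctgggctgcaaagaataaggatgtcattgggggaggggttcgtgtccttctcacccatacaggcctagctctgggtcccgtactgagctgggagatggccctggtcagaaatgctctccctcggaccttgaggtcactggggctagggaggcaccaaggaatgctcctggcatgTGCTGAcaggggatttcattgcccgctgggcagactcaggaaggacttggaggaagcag
Podxl promoter: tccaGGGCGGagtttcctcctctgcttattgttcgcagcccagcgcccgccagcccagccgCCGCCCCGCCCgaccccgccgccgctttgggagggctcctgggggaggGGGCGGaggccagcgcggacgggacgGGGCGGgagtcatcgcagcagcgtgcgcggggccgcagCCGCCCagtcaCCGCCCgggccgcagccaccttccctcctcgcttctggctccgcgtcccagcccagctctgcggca

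Of the 8 members 7 had a promoter in the table, with no entry for Plce1, and 4 words were searched in 33469 promoters. TGCTGA was found in Nphs1, starting 59 bases before the gene, and in Wt1, and in 15.1% of all promoters. GGGCGG, the core of a GC box, was found in Podxl, 7 times, and in Synpo, and in 30.5% of all promoters. GTGGGAG, a WT1-type word, and TAATTA, a homeodomain word, were in 0 of the 7 members and in 7.51% and 4.86% of all promoters. GC content was 57.2% for Nphs1 and 76.4% for Podxl, beside a median of 51.2%. These are matches of letters only, and no word was shared by Nphs1 and Podxl.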

How the data were processed

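RNA of 12 left kidneys was measured on single-colour arrays, 4 for each of 3 groups. Per the file headers, the scans were quantified in Agilent Feature Extraction, version 9.5.1.1, and the processed signal, mean signal and local background are deposited as intensity values, without normalization between arrays. Per the file headers, flags of 0 or 1 mark spots above background, saturated or outlying. A deposited value table of the authors is on the log2 scale and matched the scanner values scaled to the 75th percentile and centred on the probe (lowest correlation 0.998); it carries no level and was used as an alternative.

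Here log2 of the processed signal was taken, the 75th percentile of the array was subtracted, outlier spots were left out and spots of a probe were averaged. A probe was kept where some group had it above background on each of its 4 arrays (21062 of 30367 probes), and the brightest stood for its gene (18510 genes). Names came from a rat gene table by accession (17998 probes), symbol (2359) or synonym (615), and for 9395 probes from the files. Groups were compared with limma 3.58.1 in R 4.3.3, two-sided, with 1 spread over 12 arrays and Benjamini-Hochberg adjustment over all probes; the fit was tested on simulated data. The genes named are the members, genes of the 10 lists and the 10 nearest to Nphs1; some list genes are not reported here. The members and lists were chosen with earlier results of these data known. Replicate numbers do not pair the rats: over 12 pairs the correlation of deviations ran from -0.334 to 0.195, with 2 over 0.1. The arrays lay on 3 slides, each with all groups, scanned in 2 batches. Alternatives covered scaling, background correction, filter, blocks, slides and each array left out.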

Additional observations from a re-analysis of the deposited data

Results flagged for a closer look

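Of 168 sets of 4 values tested, 9 held an array that stood far from the others by Dixon's criterion; chance gives about 1 in 20. Among the slit diaphragm genes, Nphs1 probe 1 read 0.00 on day 7 replicate 4, with the next array at -1.19. On the same array Magi2 read -1.18, with the next at -3.18. Kirrel1 read -0.25 on sham replicate 3, with the next at -0.98, and -0.45 on day 3 replicate 3, with the next at 0.43.

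Among the other podocyte genes, Cd2ap read -0.20 on sham replicate 2 (next 0.04), and Cdkn1c read -0.30 on the same array (next 0.68). Nherf2 read 2.73 on sham replicate 3 (next 2.36), and Dag1 read 1.61 on day 7 replicate 1 (next 1.38). The leukocyte gene Ptprc read -1.91 on sham replicate 3 (next -1.19).

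The change from sham differed between day 3 and day 7, by the limma test of day 7 against day 3, for Nphs1 probe 1 (1.02), Podxl (0.82) and Magi2 (1.97).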

How the results depend on the processing

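No call of a member probe, against sham or between the days, changed its direction under the alternatives run. Calls relative to Nphs1 were followed as counts only, and single genes of the lists were not followed, so their directions were not checked. Calls made only under an alternative did turn within a slide: Kirrel1 at day 7 was 0.80 with scaling to the total signal and -0.13 within slide 3, Kirrel1 between the days was -0.75 without day 3 replicate 3 and 0.25 within slide 1, and with normexp without spots below local background Nphs1 probe 2 between the days was 0.83 (-0.01 within slide 1) and Ptpro probe 2 at day 7 was -0.67 (0.41 within slide 2). The normexp background correction moved most counts: 2 members and 3084 genes passed at day 3, with a member median of -1.08; 0 members and 85 genes passed at day 7 against sham, and 0 members and 156 genes at day 7 against day 3. Relative to Nphs1 it left 0 members at day 7 and 0 between the days. The cause was not tested, but with spots below their local background left out before the fit, an alternative added after seeing the data, 5, 2 and 3 members passed as in the values reported. With only probes above background on all 12 arrays the member median at day 3 was -1.11. Within slide 1 the member medians were -1.16 at day 7 and 0.25 between the days, within slide 2 -0.45 at day 3, and within slide 3 they were -2.27, -1.08 and 1.19 for the 3 comparisons in turn.

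Leaving out each array in turn gave, for day 3 against sham, day 7 against sham and day 7 against day 3, 5 to 5, 2 to 3 and 2 to 4 members, 9242 to 10476, 2009 to 3415 and 3405 to 6057 genes, 3 to 4, 2 to 4 and 1 to 4 members relative to Nphs1, and member medians of -2.01 to -1.31, -0.98 to -0.39 and 0.33 to 0.92. Counts of genes moved by over 1.5 times without day 7 replicates 1 (2157) and 3 (2009) in the day 7 comparison with sham, and without day 3 replicates 2 (3596) and 4 (3405) and day 7 replicate 4 (3752) between the days.

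The replicate numbers mark no pairing, and with the replicate block 5, 2 and 3 members and 10102, 2400 and 4601 genes passed, with 4, 4 and 4 members relative to Nphs1. Higher calls made up 42.2%, 43.5% and 57.4% of all calls in the 3 comparisons; they made up 58.6%, 78.1% and 53.1% with scaling to the total signal, which shifts the median of all genes to 0.15, 0.17 and 0.01, 48.0%, 55.5% and 55.5% in the authors' value table, and 52.2%, 82.4% and 51.3% with normexp. Dim probes limit Magi2, Plce1 and Wt1 probe 3, which were close to background after injury.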
